A study of Kalanchoe laxiflora with 7 samples.

Results

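The transcripts described here are the most abundant ones of the mature wild-type leaf of Kalanchoe laxiflora. They are the 200 gene models with the highest mean TPM over the 4 wild-type (WT) libraries, less 7 whose CPM (raw counts scaled to 1000000 per library) in every KlaxMUTE1 OE library were under 0.25 of the lowest WT value. This left 193 of 27768 gene models, called members below. TPM is the count of a gene model divided by its length and scaled so that each library sums to 1000000. Both values that chose the members, WT TPM and KlaxMUTE1 OE CPM, came from the contrast that follows, so the members' levels in both genotypes are a description and carry no test.

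K. laxiflora is a succulent. Succulents of this genus carry out crassulacean acid metabolism (CAM), in which CO2 is fixed at night, stored as malate in the vacuole, and released behind closed stomata by day for refixation by Rubisco. In green leaves generally, transcripts for the small subunit of Rubisco and for the chlorophyll-binding antenna proteins are among the most abundant. MUTE is a transcription factor of the stomatal lineage, known from Arabidopsis thaliana for ending the asymmetric divisions of stomatal precursors. In K. laxiflora the study describes the opposite role. It reports that overexpressed KlaxMUTE1 brought extra asymmetric divisions and many small cells to the leaf epidermis.

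The study asked what a constitutively expressed KlaxMUTE1 changes in the transcripts of the mature leaf. Leaf pair 7 was sampled from 4 WT individuals of the diploid OBG accession and from 3 independent lines that carry mCitrine-KlaxMUTE1 under the constitutive 35S promoter (KlaxMUTE1 OE). The OE samples are thus separate transformation events and the WT samples are separate plants, and no empty-vector or regenerated control group was analysed here. The sources used here do not give the hour of harvest.

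Poly(A)-selected RNA was sequenced, and between 18665659 and 24659199 reads were counted per WT library and between 20679921 and 27216722 per KlaxMUTE1 OE library. KlaxMUTE1 itself had 0 counts in each WT library and 16950, 38933 and 55802 counts in KlaxMUTE1 OE replicates 1, 2 and 3, which matched the labels. These counts were 0.0820%, 0.143% and 0.240% of the 3 libraries. Scaling factors by TMM, which sets the libraries' typical gene models level, were 0.918 to 0.980 in WT and 1.02 to 1.16 in KlaxMUTE1 OE. Without them, the median log2 change of all tested gene models moved from 0.07 to 0.27, so each change below is given relative to the TMM scale unless it is called a share or a TPM.

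The members took up a smaller part of every KlaxMUTE1 OE library than of any WT library. They held 31.1%, 28.5%, 29.5% and 28.6% of the counted reads in WT replicates 1 to 4, a mean of 29.4% ± 1.22 (SD, n = 4). In KlaxMUTE1 OE replicates 1 to 3 they held 18.4%, 20.6% and 23.5%, a mean of 20.8% ± 2.57 (SD, n = 3). The genotypes did not overlap, and the mean difference of -8.60 percentage points was larger than the spread within either genotype. On the TPM scale, which gives short gene models more weight, the same 193 gene models held 40.6% to 44.2% in WT and 27.2% to 32.7% in KlaxMUTE1 OE. The widest Wilson 95% interval of a library's share of counted reads spanned 0.0420 percentage points, so counting error was small against the difference between libraries. In bulk leaf RNA, fewer cells of a type and less RNA per cell cannot be told apart.

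Since the rule ranked the WT libraries, their own share could be raised by that choice. When the members were chosen again without 1 WT library, 186 to 190 of them were shared with the 193, and the library left out still gave 28.3% to 30.6% of its reads to the gene models chosen by the other 3. The same lists held 18.1% to 23.7% of the reads in the KlaxMUTE1 OE libraries.

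**Figure D1:**
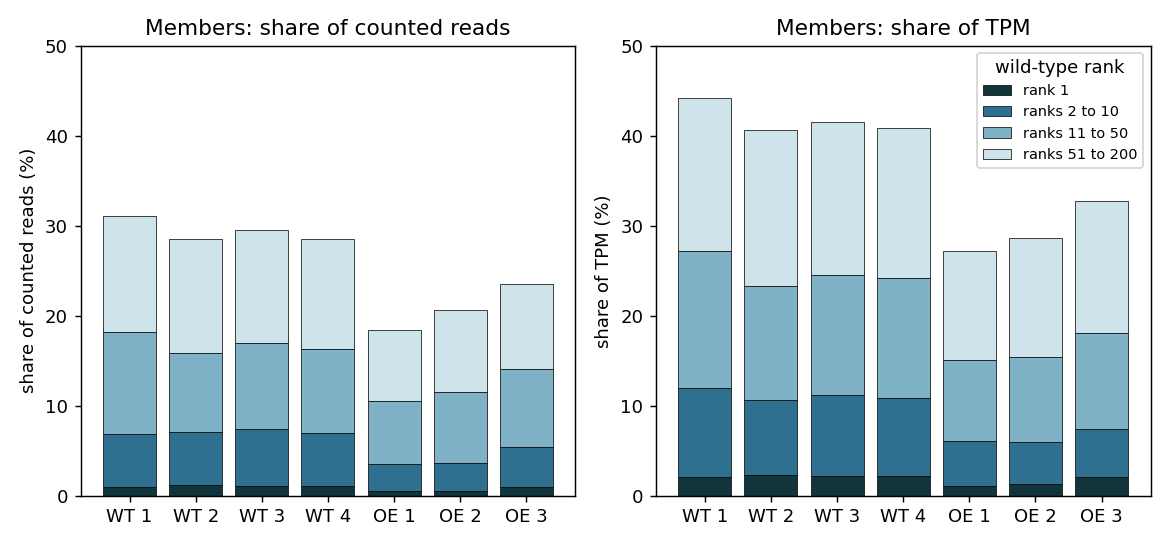
Share of counted reads (left, %) and of TPM (right, %) that the 193 members held in each library (WT 1 to 4, OE 1 to 3 for KlaxMUTE1 OE), split by rank in the mean WT TPM. The bars of the KlaxMUTE1 OE libraries reach 18.4% to 23.5% of reads against 28.5% to 31.1% in WT, and the order is the same on the TPM scale.

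The lower share was spread over the ranks. The gene model of rank 1 went from 1.06% ± 0.0550 of the counted reads in WT to 0.663% ± 0.225 in KlaxMUTE1 OE. Ranks 2 to 10 went from 5.99% ± 0.206 to 3.55% ± 0.838, and ranks 51 to 200 from 12.6% ± 0.284 to 8.77% ± 0.793. In each of these 3 classes every KlaxMUTE1 OE library was below every WT library. Ranks 11 to 50 held 9.79% ± 1.12 of the reads in WT and 7.84% ± 0.862 in KlaxMUTE1 OE, where the WT libraries reached down to 8.80% and the OE libraries up to 8.65%, so that this class separated the genotypes only narrowly.

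On the TPM scale the members' mean share differed by -12.3 percentage points. The 10 members with the largest drops in mean TPM accounted for 5.30 points, or 43.2% of that net difference, and 154 members had a lower and 39 a higher mean TPM in KlaxMUTE1 OE. Outside the members, gene models of WT ranks 201 to 1000 went from 20.2% ± 0.447 to 17.0% ± 1.24 of the reads. Those of ranks 5001 to 27768 went the other way, from 21.4% ± 0.455 to 31.4% ± 2.85. The next ranks below the members thus had a lower mean share as well, and the share of gene models of low WT rank was higher in every KlaxMUTE1 OE library than in any WT library. These classes were also formed on WT levels and are a description.

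Whether the KlaxMUTE1 OE libraries were less concentrated on few transcripts at all was tested with each library ranked by its own TPM, so that the choice of members does not enter. In WT the members make up 83.5% to 92.0% of each library's own 200 highest gene models, so the test largely reads the members' own WT levels and is no separate support for their lower share. The number of gene models that together hold 50% of all TPM was 277, 358, 334 and 358 in the WT libraries and 479, 680 and 499 in the KlaxMUTE1 OE libraries. Every KlaxMUTE1 OE library thus needed more gene models than any WT library, with means of 332 ± 38.2 (SD, n = 4) and 553 ± 111 (SD, n = 3). An exact two-sided permutation test over the 35 arrangements of the libraries gave p = 0.0286, the smallest value that this design allows, and p = 0.0286 after Benjamini-Hochberg adjustment over the 3 measures of concentration.

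The 10 highest gene models of each library, whichever they were, held 10.7% to 12.2% of TPM in WT and 7.37% to 8.99% in KlaxMUTE1 OE. The 200 highest held 41.9% to 45.8% in WT and 32.9% to 37.6% in KlaxMUTE1 OE. Neither measure overlapped between genotypes, and each gave an adjusted p = 0.0286 in the same exact permutation test. These measures and the one before read the same ordered TPM of each library, so their p-values are not separate pieces of support. With CPM in place of TPM, the share of the 10 highest differed by -1.46 percentage points and no longer passed (adjusted p = 0.143, exact permutation test), whereas the other 2 measures kept an adjusted p of 0.0429 each. The difference at the extreme top thus passed the test per length but not per counted read.

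**Figure D2:**
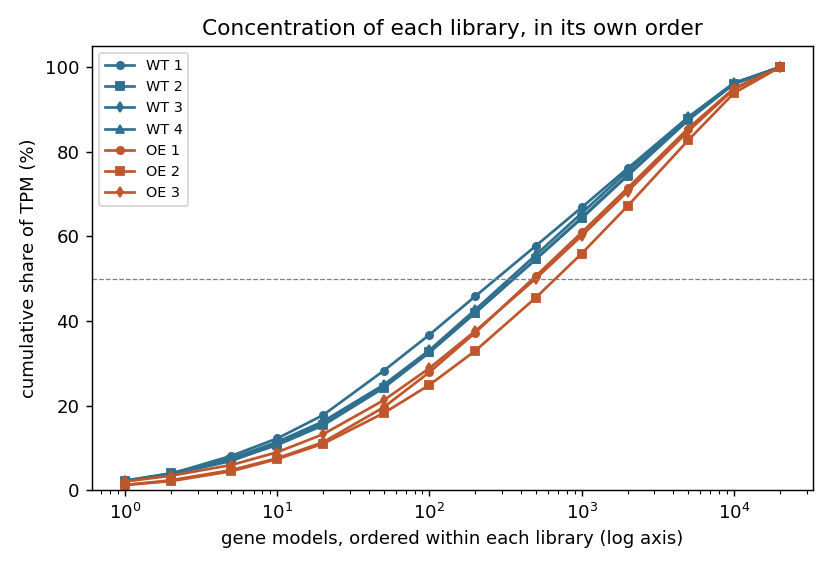
Cumulative share of TPM (y axis, %) against the number of gene models, ordered within each library from its own highest down (x axis, log scale). Blue lines are the 4 WT and orange lines the 3 KlaxMUTE1 OE libraries, and the dashed line at 50% is crossed at 277 to 358 gene models in WT and at 479 to 680 in KlaxMUTE1 OE.

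Rank by rank, the order at the top was partly kept. Of the 193 members, 132 were also among the 200 gene models with the highest mean TPM in KlaxMUTE1 OE, which is 68.4% of the members and 66.0% of that list. The remaining 61 members had a median rank of 306 in KlaxMUTE1 OE, and 1 of them lay beyond rank 1000, at 1005. The trim had removed gene models by their KlaxMUTE1 OE level, so these ranks are bounded by the rule. Of the 200 gene models before the trim, 7 lay beyond rank 1000 in KlaxMUTE1 OE, 6 of them among the 7 trimmed, whose ranks ran from 925 to 12754. Of each WT library's own 200 highest gene models, 167 to 184 were members, against 109, 137 and 132 in KlaxMUTE1 OE replicates 1, 2 and 3.

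The list taken from the other side gave no mirror image. The 200 gene models with the highest KlaxMUTE1 OE mean held 31.4% to 36.5% of TPM in the KlaxMUTE1 OE libraries and 35.2% to 41.1% in the WT libraries, ranges that overlap. Among the 68 gene models that were in that list and not among the 200 highest of WT was the overexpressed KlaxMUTE1 itself. It had rank 37 and a mean TPM of 2362 in KlaxMUTE1 OE. By the annotation notes used here, 4 others had an annotation naming a gene or family. They resemble ASR2, an abscisic acid, stress and ripening protein of tomato, a non-specific lipid-transfer protein of cotton, MLP423, a major latex-like protein of A. thaliana, and GGAT2, an A. thaliana glutamate-glyoxylate aminotransferase of the kind that acts in photorespiration. The lines differed widely for ASR2-like, with a TPM of 2631, 303 and 1162 in KlaxMUTE1 OE against 308 to 629 in WT. For MLP423-like it was 300, 551 and 1413 against 264 to 435. The lipid-transfer gene model had 797 to 936 against 177 to 324, and GGAT2-like 524 to 836 against 291 to 413.

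Per gene model, the members' fitted changes lay mostly below 0. The median log2 fold change of KlaxMUTE1 OE over WT was -0.82, which is a median 1.77-fold lower level, with quartiles at -1.28 and -0.40 and a range from -3.25 to 1.33. The median over all 21902 tested gene models was 0.07. All 193 members passed the filter of at least 10 counts summed over the libraries. With library size as the sole scaling, the members' median was -0.65 against 0.27 for all tested gene models. A change of scaling moves nearly all log2 changes by a like amount, so the similar distance between these medians is no check on the scaling.

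The log2 fold change was below 0 for 176 members (91.2%) and above 0 for 17, against 46.0% below 0 over all tested gene models. With library size as the sole scaling 163 were below 0. At an adjusted p under 0.1 in edgeR's quasi-likelihood test and a log2 change beyond 1 in size, 68 members (35.2%) were called lower, where 7.60% of all tested gene models were. In the other direction 1 member (0.518%) was called higher, where 12.6% of all tested were, and 124 were called in neither direction. Since WT level and OE level both entered the choice, these shares describe the list.

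In TMM-scaled CPM, every KlaxMUTE1 OE library was below every WT library for 108 members (56.0%), against 17.7% of all tested gene models. For no member was every KlaxMUTE1 OE library above every WT library, against 19.0% of all tested. Of the other 85 members, 43 had 2 KlaxMUTE1 OE libraries below the WT range, 30 had 1 and 12 had none. On the TPM scale the counts were 88 below (9.10% of all tested) and 4 above (31.2% of all tested), so a member's overlap depends on the scale and is named with it here.

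By rank, the median log2 change was -1.21 for ranks 1 to 10, -0.90 for ranks 11 to 50 and -0.77 for ranks 51 to 200. All of the 10 highest, 38 of the 39 next and 128 of the 144 last members had a negative value. A lower level was therefore common to all 3 classes, although 51 of the 193 members lay within 0.5 of 0.

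**Figure D3:**
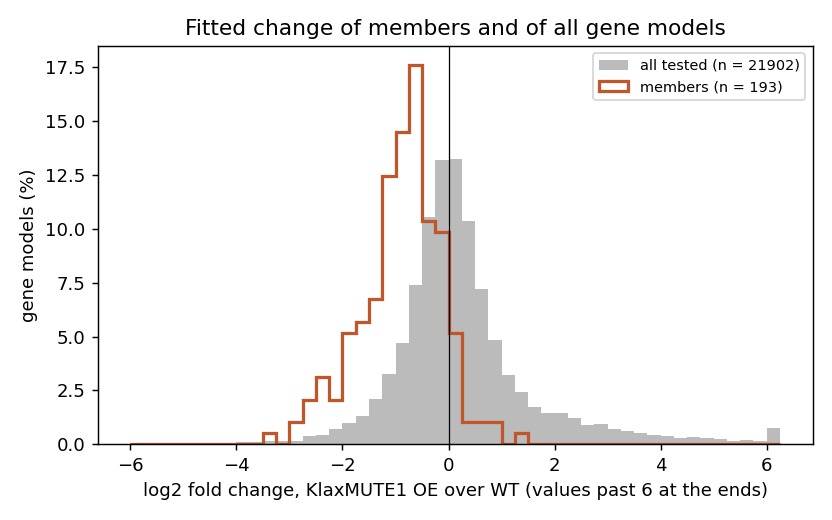
Distribution of the fitted log2 fold change of KlaxMUTE1 OE over WT (x axis) as a percentage of gene models (y axis), in grey for the 21902 tested gene models and as an orange outline for the 193 members. The members' median is -0.82 and that of all tested gene models 0.07, and the members have no value above 1.33.

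The members can be named only in part. The annotation notes used here cover 1190 of the 27768 gene models (4.29%), and 12 members fall in that stretch, of which 9 have an annotation naming a gene or family and 3 are noted as of unknown function. Each name below is that of the most similar protein in the species given, and roles are background from that species or from plants in general. Of the 9, 4 belong to photosynthesis and carbon fixation, 2 are transporters, 1 is a pathogenesis-related protein, 1 a major latex-like protein and 1 acts in polyamine synthesis.

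By TPM, the most abundant transcript of the WT leaf was RBCS1-like (KlGene000058, most similar to Fagus crenata), the small subunit of Rubisco, the enzyme that fixes CO2 in the chloroplast. Its TPM, in the order of the replicate numbers here and below, was 20412, 22805, 22208 and 21998 in WT and 11197, 12413 and 20704 in KlaxMUTE1 OE. In TPM the third KlaxMUTE1 OE line was inside the WT range and the other 2 were far below it, while in TMM-scaled CPM all 3 were below. The log2 change was -0.86 ± 0.31 (SE) and -1.20 without the third line, and the gene model was also of rank 1 by TPM in KlaxMUTE1 OE. Per counted read it was not the highest of WT. Its WT CPM was 9996 to 11313, against 12110 to 14201 for rank 2 and 17663 to 22620 for rank 9. Rubisco small subunits usually form gene families, and the sources used here do not say how reads with several matches were counted.

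LHCB4.2-like (KlGene000845, rank 20) resembles CP29 of A. thaliana, a minor antenna protein that links the light-harvesting complexes to photosystem II. Its TPM was 6165, 3365, 3926 and 3648 in WT and 3146, 1831 and 2364 in KlaxMUTE1 OE. The genotypes did not overlap, although WT replicate 1 stood well above the other WT libraries, and the log2 change was -1.08 ± 0.35 (SE).

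PSAL-like (KlGene001212, rank 178) resembles subunit XI of photosystem I, a subunit of its reaction centre. Its TPM was 973, 740, 797 and 643 in WT and 591, 544 and 780 in KlaxMUTE1 OE. The third KlaxMUTE1 OE line lay within the WT range, as it did for RBCS1-like, and the log2 change was -0.60 ± 0.24 (SE).

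BCA2-like (KlGene000238, rank 157) resembles a beta carbonic anhydrase of A. thaliana, an enzyme that interconverts CO2 and bicarbonate, the form that enters nocturnal fixation in CAM. Its TPM was 938, 776, 927 and 819 in WT and 1830, 1034 and 1905 in KlaxMUTE1 OE. On the TPM scale all 3 KlaxMUTE1 OE libraries were above the WT libraries, while in TMM-scaled CPM the second was below them, and the log2 change was 0.60 ± 0.29 (SE). It was the 1 member of the 4 photosynthesis members with a positive change.

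NPF3.1-like (KlGene000065, rank 57) belongs to the NRT1/PTR family of nitrate, peptide and hormone transporters. Its TPM was 1401, 2345, 2631 and 2040 in WT and 984, 1172 and 774 in KlaxMUTE1 OE. The genotypes did not overlap on either scale, and the log2 change was -1.41 ± 0.29 (SE), the lowest of the 9 apart from that of PR-1C-like.

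PHT1-7-like (KlGene001088, rank 171) resembles an inorganic phosphate transporter of A. thaliana. Its TPM was 475, 869, 1068 and 854 in WT and 415, 1337 and 482 in KlaxMUTE1 OE. The second KlaxMUTE1 OE line had the highest TPM of all 7 libraries and the first had the lowest, so the log2 change of -0.49 ± 0.43 (SE) does not describe the single lines, and without the second line it was -1.10.

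PR-1C-like (KlGene000433, rank 100) resembles a pathogenesis-related protein of tobacco, a family named for its induction during defence. Its TPM was 45.0, 1946, 2296 and 845 in WT and 7.14, 668 and 3.86 in KlaxMUTE1 OE. The WT libraries alone ran from 45.0 to 2296, and the second KlaxMUTE1 OE line lay inside that span, so that the log2 change of -2.94 carried an SE of 1.82. Without that line it was -8.08.

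MLP43-like (KlGene000315, rank 119) belongs to the major latex-like proteins. Its TPM was 837, 1224, 694 and 1597 in WT and 1862, 90.2 and 177 in KlaxMUTE1 OE. The first KlaxMUTE1 OE line was above every WT library and the other 2 were below every one, and the log2 change was -0.80 ± 0.97 (SE). It was -3.35 without the first line, -0.27 without the second and -0.33 without the third.

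SAMDC-like (KlGene000098, rank 188) resembles the S-adenosylmethionine decarboxylase of Vicia faba, which supplies the aminopropyl groups for spermidine and spermine. Its TPM was 763, 808, 690 and 729 in WT and 2496, 865 and 985 in KlaxMUTE1 OE. The first line was far above all other libraries, the WT libraries lay close together, and the log2 change was 0.71 ± 0.41 (SE). Without that line it was -0.05 and without the second 1.02, so both its direction and its size on the TMM scale depended on which KlaxMUTE1 OE lines entered.

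**Figure D4:**
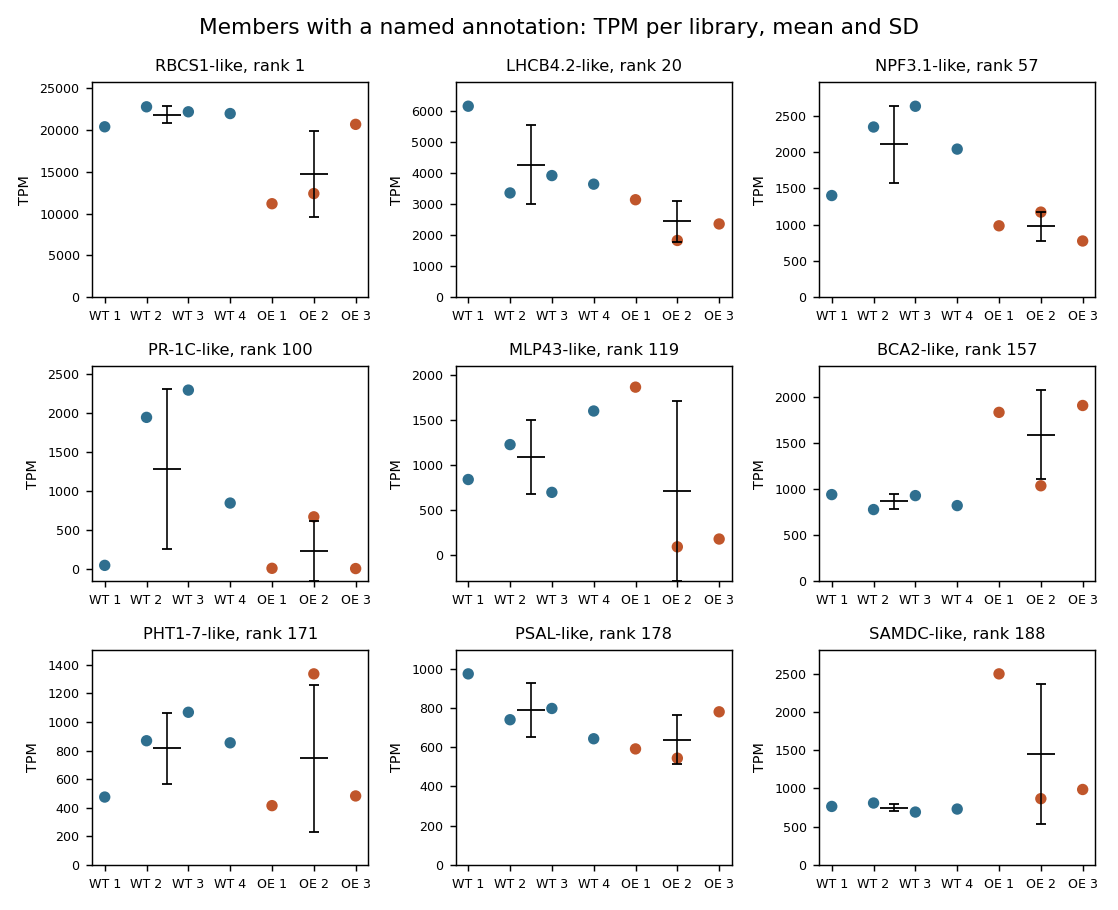
TPM (y axis, own scale in each panel) of the 9 members with a named annotation in the 4 WT (blue) and 3 KlaxMUTE1 OE (orange) libraries. Bars show the mean ± SD of each genotype, and the KlaxMUTE1 OE libraries lie apart from the WT libraries in TPM for LHCB4.2 and NPF3.1 (below) and for BCA2 and SAMDC (above), where the last 2 overlap in TMM-scaled CPM.

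Ranks 2 to 5 carry no note among those used here and are given by rank. Rank 2 had a TPM of 16590, 17192, 17164 and 15306 in WT and 6503, 8863 and 13513 in KlaxMUTE1 OE, and rank 4 had 12068, 12042, 13226 and 11306 in WT and 6458, 7564 and 4964 in KlaxMUTE1 OE. Both were steady among WT libraries, with log2 changes of -1.09 ± 0.32 (SE) and -1.25 ± 0.23 (SE). Rank 3 had a TPM of 18603, 7338, 13378 and 10909 in WT and 5198, 4540 and 4907 in KlaxMUTE1 OE, and rank 5 had 13586, 6414, 7905 and 8707 in WT and 2956, 3717 and 3135 in KlaxMUTE1 OE. These 2 gene models have the same length of 803 bases and were both highest in WT replicate 1 and lowest in WT replicate 2, while their 3 KlaxMUTE1 OE values lay close together. Their log2 changes were -1.66 ± 0.37 (SE) and -1.80 ± 0.32 (SE). The members of ranks 24 and 25, added after their values were seen, also have 803 bases. Both were likewise highest in WT replicate 1 and lowest in WT replicate 2. Their log2 changes were -0.50 ± 0.25 (SE) and -1.17 ± 0.28 (SE), and rank 24 overlapped between genotypes.

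The distance of the next ranks to RBCS1-like differed between the genotypes, in both directions. In WT, rank 2 reached 75.8% of the mean TPM of rank 1 and rank 3 57.5%, whereas in KlaxMUTE1 OE the same gene models reached 65.2% and 33.0%. Ranks 9 and 10 reached 30.9% and 30.04% of rank 1 in WT and 42.8% and 46.5% in KlaxMUTE1 OE. They had log2 changes of -0.39 ± 0.34 (SE) and -0.19 ± 0.50 (SE), and both overlapped between genotypes. Rank 10 had a mean TPM of 6566 in WT and 6865 in KlaxMUTE1 OE, so its direction differed between the TPM and the TMM scale.

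**Figure D5:**
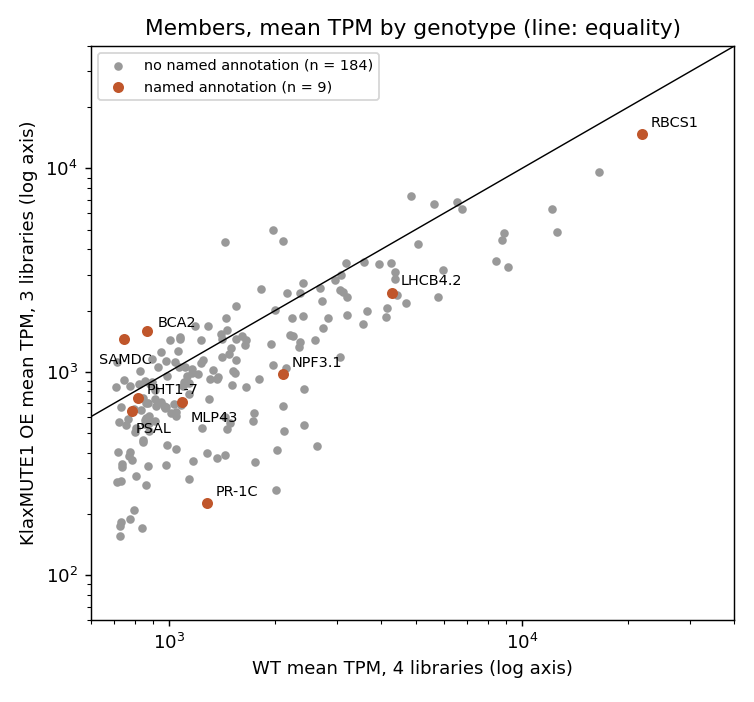
Mean TPM of each of the 193 members in WT (x axis, log scale, n = 4) and in KlaxMUTE1 OE (y axis, log scale, n = 3), with the 9 members that have a named annotation in orange and equality as a line. On this scale 154 members lie below the line and 39 above it, and RBCS1-like is the highest in both genotypes.

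Among the members without a named note, the most negative log2 change without overlap was that of KlGene026514 (rank 60). Its TPM was 2014, 2380, 1255 and 2416 in WT and 266, 389 and 134 in KlaxMUTE1 OE, with a log2 change of -3.25 ± 0.41 (SE). KlGene022799 (rank 40) came next, with a TPM of 1515, 3401, 2625 and 2981 in WT and 385, 591 and 315 in KlaxMUTE1 OE and a log2 change of -2.93 ± 0.36 (SE). Both stayed inside the list because their highest KlaxMUTE1 OE CPM was above 0.25 of their lowest WT CPM. The lowest such ratio kept was 0.282 and the highest left out was 0.248.

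At the other end, no unnamed member lay wholly above WT in TMM-scaled CPM, and the highest log2 changes without overlap were again negative. KlGene002377 (rank 116) had a TPM of 1249, 1049, 1086 and 1048 in WT and 703, 1258 and 1188 in KlaxMUTE1 OE, with a log2 change of -0.40 ± 0.23 (SE). KlGene013455 (rank 191) had 643, 756, 790 and 746 in WT and 660, 808 and 552 in KlaxMUTE1 OE, with a log2 change of -0.43 ± 0.17 (SE). On the TPM scale both overlapped between genotypes.

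The 1 member called higher was KlGene000617 (rank 87), noted as of unknown function and named here after its values were seen. Its TPM was 1919, 1233, 1218 and 1415 in WT and 6954, 2228 and 3802 in KlaxMUTE1 OE, where it had rank 14. All 3 lines were above WT in TPM, while the second overlapped WT in TMM-scaled CPM, and the log2 change was 1.33 ± 0.42 (SE). The call was lost when WT replicate 2, 3 or 4 was left out, or at an adjusted p under 0.05.

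The cut at rank 200 fell at no gap. The member of rank 200 had a mean WT TPM of 710.1 and the gene model of rank 201, left out, 708.1. The members' mean WT TPM ran from 710 over a median of 1292 to 21856. Of the 7 gene models trimmed for low KlaxMUTE1 OE values, which together went from 0.603% ± 0.149 to 0.0498% ± 0.00827 of the counted reads, 1 had a note. It resembles STP-1, a plastidial alpha-glucan phosphorylase of potato, an enzyme that releases glucose 1-phosphate from starch, and it had rank 102, with a TPM of 907 to 1562 in WT and 115 to 221 in KlaxMUTE1 OE.

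The 3 KlaxMUTE1 OE lines differed more among themselves than the 4 WT plants did. The median SD of the members' log2 level was 0.262 in WT and 0.454 in KlaxMUTE1 OE, and the SD was larger in KlaxMUTE1 OE for 148 members (76.7%). Over all tested gene models the medians were 0.214 and 0.326, with a larger SD in KlaxMUTE1 OE for 69.5%, so the members shared a spread that was seen across the libraries. The highest of the 3 KlaxMUTE1 OE values was a median 1.75-fold above the lowest in TPM, and for 28 members more than 4-fold. The share of all tested gene models with such a span is not given here. In WT the median span was 1.50-fold over 4 plants.

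For 22 members, at least 1 KlaxMUTE1 OE line was above the whole WT range and at least 1 below it in TMM-scaled CPM. The line above was replicate 1 for 11 of them, replicate 3 for 12 and replicate 2 for 2, with some members having more than a single line above. The like count over all tested gene models is not given here, so this describes the list and no trait particular to it. Over all members, replicate 2 was the lowest line for 86, replicate 1 for 64 and replicate 3 for 43. KlaxMUTE1 OE replicate 2 also had the lowest own share in its 10 and 200 highest gene models. The line with the fewest KlaxMUTE1 reads, replicate 1, gave the members the lowest share of reads and the line with the most, replicate 3, the highest, an order over 3 lines that no test can carry.

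Among WT plants, replicate 1 stood somewhat apart. It was the highest WT library for 87 members and the lowest for 68, so that few members had it in the middle. A range of more than 4-fold among the WT libraries was seen for 6 members, with PR-1C-like the 1 named among them, and in 5 of the 6 replicate 1 was the lowest. Spearman's rho of the members' TPM between libraries was 0.692 to 0.895 over the 6 WT pairs, 0.693 to 0.820 over the 3 KlaxMUTE1 OE pairs and 0.512 to 0.762 over the 12 pairs between genotypes. The top of the last range came from WT replicate 1 alone. It gave 0.715, 0.762 and 0.717 with KlaxMUTE1 OE replicates 1 to 3, each above its 0.692 with WT replicate 2. The other pairs between genotypes reached at most 0.671. These values run over the 193 members within a narrow band of levels, and the pairs share libraries.

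The members were short. Their gene models had a median length of 1381 bases, from 200 to 6702, against 2482 bases over all gene models, and 34 (17.6%) had at most 500 bases, against 8.26% overall. TPM divides by length, so the rule itself favours short gene models, and the sources used here do not say if the deposited lengths hold introns. Of the 193 members, 131 (67.9%) were also among the 200 gene models with the highest WT CPM, a list with a median length of 2736 bases. By number, 8 pairs of members lay within 3 numbers of each other and 1 pair was adjacent. How many pairs a random draw of gene models would give was not worked out. Positions and copies were not analysed here.

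Beside the members, 6 lists of gene models made from the same notes were read. Only the list for photosynthesis and carbon fixation holds members. Of the 10 gene models for photosynthesis and carbon fixation, all were tested, 4 are members, 3 were called lower (7.60% of all tested) and 0 higher (12.6%), with a median log2 change of -0.73. Their summed TPM was 27696 to 29221 in WT and 16287 to 26351 in KlaxMUTE1 OE, most of it from RBCS1-like. RBCS1-like and LHCB4.2-like were among the 20 highest gene models of WT by TPM, but the list also held gene models of low level. The LHCII type I-like KlGene000484 had rank 6146, with a mean WT TPM of 20.9, and the FBA3-like aldolase had rank 9669. Both are named after their values were seen. Their log2 changes were -1.62 ± 0.22 (SE, edgeR adjusted p = 0.00385) and 0.09 ± 0.20 (SE, edgeR adjusted p = 0.745). Of the 6 that are no members, the highest in WT was similar to At1g54780, a thylakoid protein of A. thaliana, with a log2 change of -0.93 ± 0.19 (SE) and an adjusted p = 0.0137 in edgeR. The gene models similar to thioredoxin F (-0.48 ± 0.28 SE, edgeR adjusted p = 0.227) and to the chloroplast fructose-1,6-bisphosphatase (-0.25 ± 0.15 SE, edgeR adjusted p = 0.243) did not pass.

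None of the 12 gene models for malate, starch and glycolysis, processes that take part in the carbon flow of CAM, is a member. The 12 were listed by note and need not each serve CAM. Since the notes cover 4.29% of gene models, the list cannot tell which CAM transcripts are among the members without a note. Of the 9 tested, 5 were called lower (7.60% of all tested) and 0 higher (12.6%), with a median log2 change of -1.31, and 1 of the 5 is the STP-1-like phosphorylase that the rule trimmed. Their summed TPM was 2096 to 2763 in WT and 998 to 1342 in KlaxMUTE1 OE. Without that phosphorylase, a sum added after its values were seen, it was 980 to 1503 in WT and 777 to 1181 in KlaxMUTE1 OE, and the genotypes overlapped. Beside that phosphorylase, the highest in WT were similar to AGPS1, a subunit of the enzyme that makes ADP-glucose for starch (0.12 ± 0.42 SE, edgeR adjusted p = 0.854), and to a glyoxysomal malate dehydrogenase (-0.96 ± 0.23 SE, edgeR adjusted p = 0.0216). A gene model similar to the vacuolar proton-pumping pyrophosphatase, named after its values were seen, fell by 1.79 ± 0.18 (SE) on the log2 scale, with an adjusted p = 0.00195 in edgeR.

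The ribosome lists also held no member. Of the 6 tested gene models of the cytosolic ribosome, 1 was called lower (7.60% of all tested) and 0 higher (12.6%), with a median log2 change of -0.49. Of the 9 of the organellar type 2 were called lower and 0 higher, with a median of -0.44, against the same shares of all tested gene models. Among the members that could be named there was accordingly no ribosomal protein. The list for lipid transfer, redox and stress, which holds no member, had more gene models called higher than lower. Of its 12 gene models 6 were called higher (12.6% of all tested) and 1 lower (7.60%), with a median log2 change of 1.43, and its summed TPM was 885 to 1199 in WT and 1956 to 4101 in KlaxMUTE1 OE. Its highest in WT were similar to ASR2 (1.29 ± 0.65 SE, edgeR adjusted p = 0.173), to a non-specific lipid-transfer protein (1.57 ± 0.24 SE, edgeR adjusted p = 0.00527) and to catalase 1 (-0.27 ± 0.37 SE, edgeR adjusted p = 0.616).

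A list of 7 markers of dividing cells, which a mature leaf should hold few of, was read beside the members. Of the 6 tested, 4 were called higher (12.6% of all tested) and 0 lower (7.60%), with a median log2 change of 2.46, and none is a member. The other 2 tested, similar to cyclins D1-1 (1.30 ± 0.77 SE, edgeR adjusted p = 0.239) and B1-2 (-0.09 ± 0.21 SE, edgeR adjusted p = 0.769), did not pass. The summed TPM of the list was 46.4 to 63.1 in WT and 94.7 to 188 in KlaxMUTE1 OE. The gene model similar to cyclin D3-2 had a mean TPM of 0.710 in WT and 55.5 in KlaxMUTE1 OE. Without it, a sum added after its values were seen, the list was at 46.0 to 62.7 in WT and 57.6 to 85.1 in KlaxMUTE1 OE, and the genotypes overlapped. Most of the sum in WT came from a gene model similar to cyclin B1-2. The NACK1-like kinesin, which was not tested, was at 0 in all 3 KlaxMUTE1 OE libraries and had a TPM of at most 0.0231 in WT. The summed level stayed far below that of RBCS1-like in every library, and its part in the members' lower share was not tested.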

How the data were processed

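Reads were aligned by the authors with HISAT2 to the OBG genome of K. laxiflora, and htseq-count gave the raw counts per gene model, which were deposited without normalization. The deposited TPM were recomputed from these counts and the deposited gene lengths and were the same. The deposited reads per kilobase, a signal per length before scaling, were not used, and neither were deposited columns named for a mean TPM, whose score is a genotype's mean raw count. The sources used here give no tool versions, no strand setting and no rule for reads with several matches. No per-sample column was left without a sample. All 27768 rows name a gene model, and 3622 had 0 counts in every library.

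Replicate numbers and genotypes came from the sample labels, and WT replicates are individuals and KlaxMUTE1 OE replicates independent lines. The 21902 gene models with at least 10 counts over the 7 libraries were fitted in R 4.3.3 with edgeR 4.0.16 (TMM, glmQLFit, glmQLFTest, prior count 0.125, Benjamini-Hochberg adjustment over all tested), with DESeq2 1.42.0 as an alternative. Each SE is the log2 change over the root of its F value. The fit was tested on simulated data. TMM-scaled CPM are CPM over library sizes corrected by TMM. Intervals hold for counting error alone, because amplified reads without molecular tags need not come from separate molecules. Shares and permutation tests used Python 3.11.15 with scipy 1.17.1.

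The members and the lists were chosen with earlier results of these data known. Named are the members with a note other than unknown function, ranks 1 to 5, of the other members the 2 highest and 2 lowest log2 changes among those without overlap in TMM-scaled CPM, and from the lists up to 3 gene models with the highest WT TPM. Notes were taken from the annotation alone. No sequences are printed, since none was used here.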

Additional observations from a re-analysis of the deposited data

How the results depend on the processing

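The members' median log2 change stayed between -0.89 and -0.65 under all 18 alternatives. The difference in their share of counted reads stayed between -9.94 and -7.37 percentage points with each library left out, and was -12.3 as a share of TPM. The number called lower was 43 of 98 for the top 100 and 129 of 391 for the top 400, against 7.60% of all tested gene models. Of the 193 members it was 104 without a fold limit, 63 to 79 with each library left out, 52 with library size alone and 72 with DESeq2. The number called higher was 5 of 391 for the top 400 and 0 of 197 ranked by WT CPM, against 12.6% of all tested gene models. Of the 193 it was 0 at an adjusted p under 0.05 and 0 to 2 with each library left out. For fits or limits other than the main ones, the shares of all tested gene models are not given here, so those counts describe the list alone. With each library left out, the own-order measures differed by 157 to 258 gene models for 50% of TPM, by -3.85 to -3.03 points for the 10 highest and by -8.00 to -5.66 points for the 200 highest. With 6 libraries no p can be under 0.0667, so none passed by construction. Ranked by CPM, the 10 highest differed by -1.46 points (adjusted p = 0.143, exact permutation test), and the cause was not tested. Deviations of same-numbered samples correlated at 0.108, 0.0512 and 0.0913, and those of differently numbered samples at -0.138 to 0.0737. These few pairs cannot decide whether the numbers pair the samples, and not every sample correlated best with its own number. With the replicate number as a block, 65 members were called lower, 62 of them also without it, and 1 higher, with a median of -0.88. Gene models with near-identical copies are limited by how reads with several matches were counted.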
